A study of Mus musculus with 23 samples.

Results

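The 37 genes described here encode proteins of neurons and their synapses: cytoskeletal and identity markers, the vesicle release machinery, postsynaptic scaffolds, glutamate and GABA receptors and transporters, and calcium-binding proteins and peptides of interneurons. They were picked by name as markers of brain tissue, with earlier results of these data known, and all 37 were found among the 35576 genes of the series. Their levels were followed through 6 groups of libraries from the mouse glioma lines GL261 and CT2A, to show how much neuronal RNA single bulk tumors carried and what was left after tumor cells were sorted.

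RNA was sequenced from 23 libraries. Bulk tumors came from GL261-luc2 (4 libraries; 100000 cells implanted) and CT2A-luc (4 libraries; 25000 cells implanted), lines that carry firefly luciferase, and were harvested 22 to 24 days after injection into the right striatum of female albino C57BL/6 mice aged 7 to 10 weeks. Sorted cells came from other sublines of GL261-luc2 (4 libraries) and CT2A-luc (3 libraries), which also carry luciferase. These were grown as adherent cultures before 200000 cells were implanted at the same site in mice of the same strain, sex and age. Tumor cells were taken out of dissociated tumors with magnetic beads, and no day of harvest is given for any sorted library. In a further 3 GL261 and 5 CT2A libraries the labels describe neurosphere culture before the same sort. The 5 CT2A neurosphere libraries carry GL261 in their titles but CT2A in their cell line labels and descriptions. They were kept as CT2A, and their summed level over 7 oligodendrocyte precursor genes, 317 to 462 CPM (read counts scaled to a common library size), was like that of CT2A adherent cells (375 to 449) and far from that of GL261 adherent cells (2730 to 2932). Each group rests on implants of 1 line. Bulk and sorted libraries differed at once in the subline, the cells implanted, the sort, the sequencer and the reads (150 bases against 37), whose parts cannot be told apart. Libraries held 7395846 to 42608400 estimated reads, the GL261 bulk tumors being the deepest.

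Neurons release transmitter when SNARE proteins on vesicles and on the cell membrane pull the membranes together, with synaptotagmin as the calcium sensor and complexins as clamps. Glutamate is loaded into vesicles by Slc17a7 in cortical and hippocampal neurons, and GABA is made by Gad1 and Gad2 and loaded by Slc32a1. The striatum, where the tumors were placed, is made up mostly of GABA neurons and receives glutamate axons from the cortex, whose cell bodies lie elsewhere. Outside the nervous system many of these genes are held silent by the repressor REST, which binds a DNA element called RE1.

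Promoters are shown for the members that hold a copy of this element and for Tubb3 as an example without one, as RefSeq sequences (GRCm38.p6, 250 bases before to 50 after the start). Promoters were on hand for 24 of the 37 members, 34 promoters in all. The core of RE1, searched as AGCACC, 2 bases of any kind and GGACAG on both strands, was found in the promoters of 2 members, Gad2 and Gria2, and in 0.0517% of all 32851 promoters; capitals mark the match. It began 163 bases before the start of Gad2 (chr2:22622077-22622376, plus strand) and 170 bases before that of Gria2 (chr3:80802786-80803085, minus strand), there as its reverse complement. The promoter of Tubb3 (chr8:123411303-123411602, plus strand) had no match in this window.
Gad2: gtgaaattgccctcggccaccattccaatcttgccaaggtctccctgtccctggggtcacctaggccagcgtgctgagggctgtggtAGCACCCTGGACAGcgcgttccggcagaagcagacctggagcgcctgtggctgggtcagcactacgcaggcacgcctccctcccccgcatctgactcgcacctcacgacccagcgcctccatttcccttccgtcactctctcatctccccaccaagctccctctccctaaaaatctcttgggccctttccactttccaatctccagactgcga
Gria2: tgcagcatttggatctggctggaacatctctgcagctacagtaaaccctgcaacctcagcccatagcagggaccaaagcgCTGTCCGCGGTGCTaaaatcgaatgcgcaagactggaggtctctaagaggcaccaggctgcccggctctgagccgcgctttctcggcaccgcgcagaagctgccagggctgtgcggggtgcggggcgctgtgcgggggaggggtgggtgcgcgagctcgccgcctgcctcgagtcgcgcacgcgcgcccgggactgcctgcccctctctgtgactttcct
Tubb3: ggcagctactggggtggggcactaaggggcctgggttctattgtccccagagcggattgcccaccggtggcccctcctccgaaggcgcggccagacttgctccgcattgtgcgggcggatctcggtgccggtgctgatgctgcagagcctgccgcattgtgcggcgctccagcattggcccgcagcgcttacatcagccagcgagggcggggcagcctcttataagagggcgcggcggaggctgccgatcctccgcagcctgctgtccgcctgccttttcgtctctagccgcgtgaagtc
A match is a string of letters, binding was not measured, and a link between a match and a gene's level was not tested. Slc32a1 and Sst, which were also near 0 in sorted cells, had no match.

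Neuronal RNA was present in every bulk tumor, and its amount differed greatly between tumors of the same line. The summed level of the 37 genes, in CPM with TMM-adjusted library sizes, was 811 in GL261 tumor 405, 4193 in tumor 417, 6075 in tumor 414 and 10790 in tumor 412. In CT2A it was 1622 in tumor 40, 4588 in tumor 39, 5937 in tumor 47 and 7822 in tumor 48. The highest tumor thus stood 13.3-fold above the lowest in GL261 and 4.82-fold in CT2A, and the tumors of the lines overlapped. All 37 genes reached 1 CPM in all 8 tumors. Fewer neurons and less RNA per neuron cannot be told apart in bulk tissue.

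The members moved together from tumor to tumor. Tumor 405 was the lowest GL261 tumor for 36 of 37 genes and tumor 412 the highest for 34. Tumor 40 was the lowest CT2A tumor for 36 and tumor 48 the highest for 31. The median member differed 19.5-fold between the highest and the lowest GL261 tumor and 4.88-fold between those of CT2A. The same median over all genes of at least 10 CPM was 1.60-fold for 11300 genes in GL261 and 1.34-fold for 10962 genes in CT2A. Tubb3 had the smallest range of the members in both lines, 1.91-fold and 1.42-fold.

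**Figure D1:**
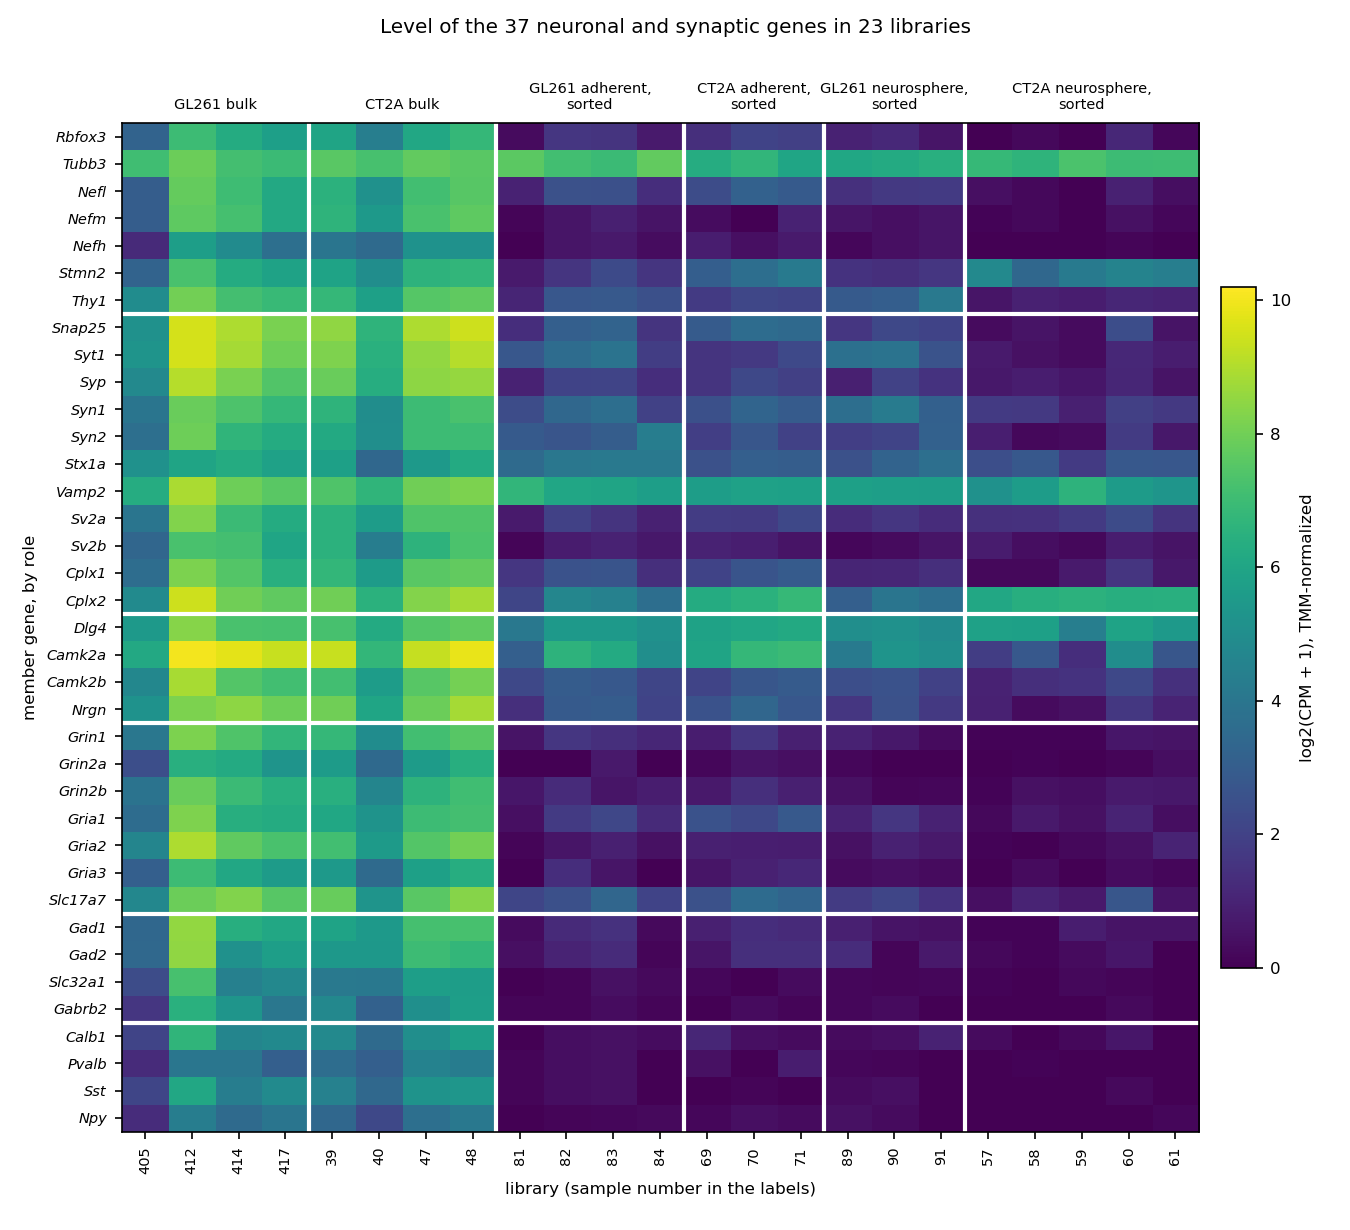
Heat map of log2(CPM + 1), TMM-normalized, for the 37 genes (rows, ordered by role) in 23 libraries (columns, by group, with their sample numbers). Bulk tumors are bright throughout except for the darker columns of tumors 405 and 40. In sorted cells only a few rows stay bright, led by Tubb3, Vamp2, Dlg4, Cplx2 and Camk2a. Of these, Cplx2 is dimmer in GL261 sorted cells, and Camk2a is dark in CT2A neurosphere libraries other than 60 (1.53 to 5.92 CPM).

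Per length of transcript, the most abundant members in bulk tumors were Snap25, a SNARE of the presynaptic membrane (mean 352 TPM, a level corrected for transcript length, in GL261 and 399 in CT2A), and Nrgn, a postsynaptic calmodulin-binding protein (320 and 366 TPM). The least abundant were the NMDA receptor subunits Grin2a (5.97 and 6.22 TPM) and Grin2b (8.85 and 8.34 TPM). Snap25 was at 34.3, 737, 496 and 282 CPM in GL261 tumors 405, 412, 414 and 417. It was at 365, 97.9, 488 and 677 CPM in CT2A tumors 39, 40, 47 and 48. Both lines therefore held a tumor with little Snap25 and a tumor with a great deal. Camk2a, the alpha subunit of the calcium/calmodulin kinase of the postsynaptic density, read 70.5, 1045, 872 and 652 CPM in the GL261 tumors and 653, 108, 626 and 936 in those of CT2A, the same 2 tumors being lowest.

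The lines were compared with the quasi-likelihood test of edgeR, with p-values adjusted by the Benjamini-Hochberg method over all genes tested and a threshold of 0.05, as in every comparison below; such p-values measure the spread between these tumors. Of all genes, 23.4% differed between CT2A and GL261 bulk tumors, and 0 of the 37 members did. None had an unadjusted p under 0.05, and DESeq2 also called 0. The median log2 fold change of the members was -0.00, beside -0.05 over all genes. Single tumors set its sign: it was 0.56 with 36 of 37 members positive without tumor 412, 0.28 without tumor 40, -0.27 without tumor 48 and -0.37 with 2 positive without tumor 405. With the wide spread between tumors these values leave room for differences: Snap25 averaged 387 ± 300 CPM (SD, n = 4) in GL261 and 407 ± 243 (SD, n = 4) in CT2A. Without tumor 412, 1 member, Tubb3, was higher in CT2A.

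**Figure D2:**
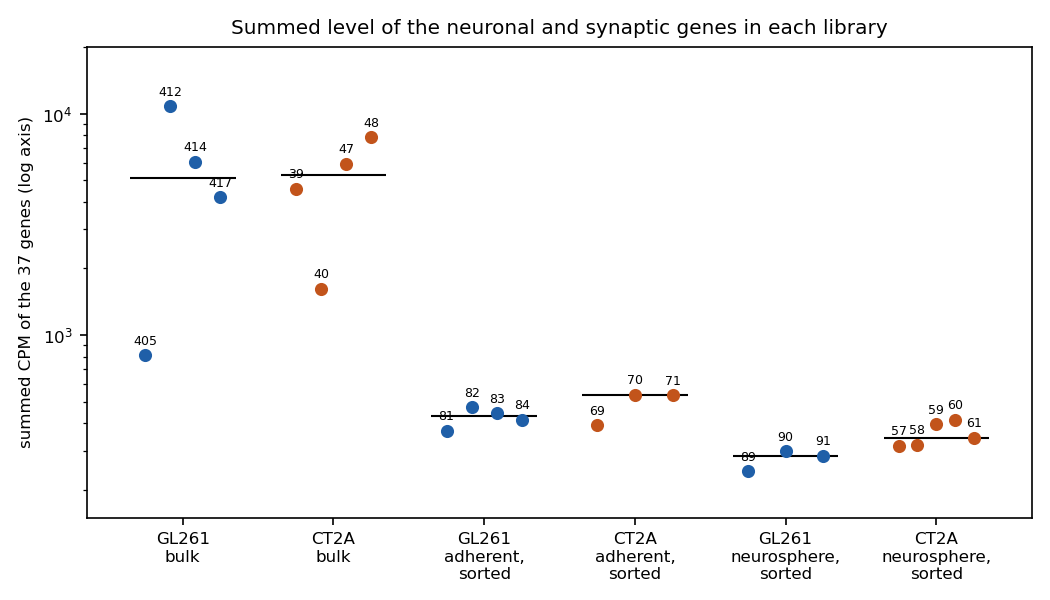
Summed CPM of the 37 genes in each library (log axis), with library numbers, blue for GL261 and orange for CT2A, and a bar at each group's median. Bulk tumors run from 811 to 10790 and sorted libraries from 243 to 538, so that no sorted library reaches the lowest bulk tumor.

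The make-up of the neuronal RNA also differed between tumors. Gad1, an enzyme of GABA synthesis, was at 368 CPM in GL261 tumor 412 and at 9.62, 82.2 and 68.0 CPM in tumors 405, 414 and 417. Slc17a7, the vesicular glutamate transporter, was at 239 CPM in tumor 412 and at 25.4, 309 and 189 CPM in those 3 tumors. Tumor 412 was thus the highest for Gad1 but not for Slc17a7. The sum of Gad1, Gad2 and Slc32a1 was 3.70 times the level of Slc17a7 in tumor 412, 0.936 times in 405, 0.767 times in 417 and 0.444 times in 414. Among CT2A tumors this ratio was 2.73 in tumor 40, 1.67 in 47, 0.926 in 48 and 0.521 in 39. It is a ratio of CPM and not of molecules, since the genes differ in length, and serves only to set tumors side by side.

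Genes that mark striatal projection neurons ran the same way. Summed over 13 genes, among them Pde10a, Adcy5 and Ppp1r1b, they came to 2604 CPM in tumor 412 and to 159, 223 and 572 CPM in tumors 405, 414 and 417. Ppp1r1b, which encodes the dopamine-regulated phosphatase inhibitor DARPP-32, was at 365 CPM in tumor 412 and at 23.2 CPM in tumor 414. Over 12 genes of cortical and hippocampal neurons, led by Wfs1, Rasgrf2 and Lamp5, the sums in tumors 412 and 414 were 429 and 314 CPM. The striatal sum was 6.07 times the cortical sum in tumor 412 and 0.711 times in tumor 414, the only 1 of the 8 tumors in which it was the lower. In the other tumors the ratio lay between 1.66 and 3.47. Sorted cells carried reads of these lists as well, with striatal sums of 116 to 144 CPM in GL261 and 206 to 240 CPM in CT2A adherent cells and cortical sums of 41.9 to 52.8 CPM. Those striatal levels come close to the sums of the tumors poorest in neuronal RNA, 405 (159 CPM) and 40 (271 CPM). They are not small beside those of GL261 tumor 414 (223 CPM) and CT2A tumor 39 (367 CPM) either. The ratios of all these tumors therefore do not describe neurons alone. With 1 tumor at each end, these ratios are a description. How each tumor was cut out of the brain was not tested.

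**Figure D3:**
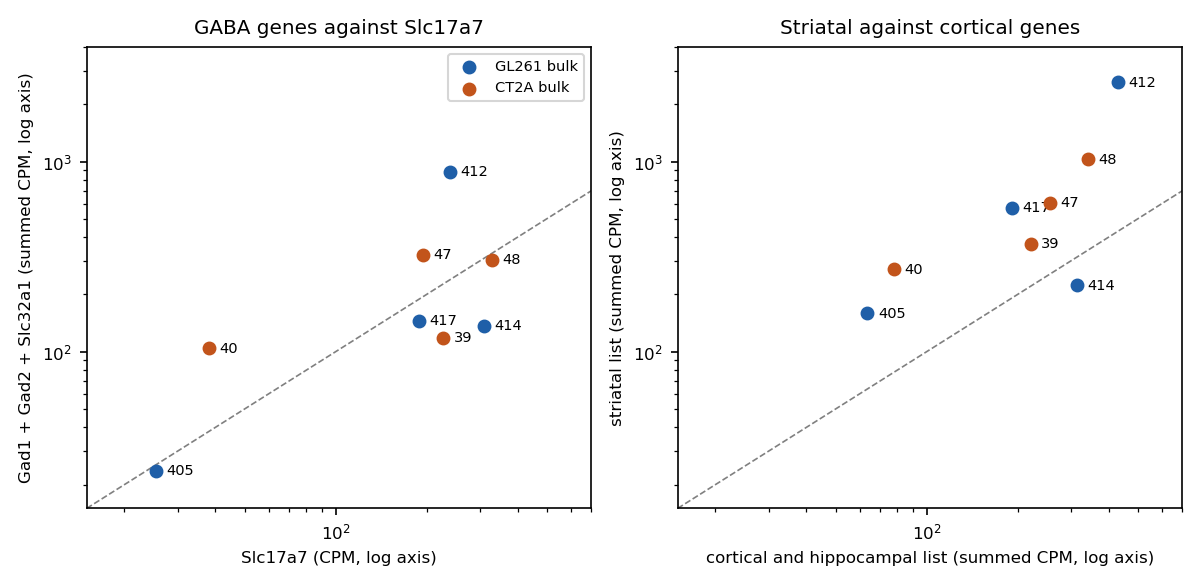
Left, summed CPM of Gad1, Gad2 and Slc32a1 against CPM of Slc17a7 in each bulk tumor; right, summed CPM of 13 striatal against 12 cortical and hippocampal genes (all log axes; the dashed line marks equal values; blue GL261, orange CT2A). Tumor 412 lies highest in both panels, and tumor 414 lies below the line in both.

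Genes of other brain cells varied too. The summed astrocyte genes, 9 in number and led by Gfap, ran from 978 CPM in tumor 405 to 4330 in tumor 412, and from 1198 in tumor 40 to 2647 in tumor 48. The 10 oligodendrocyte genes, led by Mbp, ran from 955 to 5084 CPM in the same GL261 tumors, but in CT2A tumor 40 held 1375 CPM and tumor 39 only 869. Adherent sorted cells held 436 to 837 CPM of the astrocyte list in GL261 and 474 to 639 in CT2A. They held 552 to 1039 CPM of the oligodendrocyte list in GL261 and 249 to 369 in CT2A. The lowest sums in tumors therefore need not describe these brain cells alone. The 11 macrophage and microglia genes varied less, 782 to 1094 CPM in GL261 and 639 to 1098 in CT2A, and their part in the members' range was not tested.

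Across the 8 bulk tumors, log2(CPM + 1) of a gene was set against the mean log2(CPM + 1) of the members. Of the members, 34 had a Pearson correlation above 0.9 with this mean, which they form themselves (median 0.979). The lowest were Stx1a (0.630) and Tubb3 (0.661). Among genes that are not members, 10.6% were above 0.9 and the median over all 11288 genes compared was -0.025. The 10 most alike were Atp6v1g2, Prkar1b, Add2, Cacna1b, Pacsin1, Kcnq3, Rgs7, Snrpn, Spock1 and Mturn, at 0.998 to 0.999, and at 0.996 or more within the 4 tumors of either line, too few to read alone. Cacna1b, the pore subunit of the N-type calcium channel, ran from 4.67 to 84.9 CPM. Snrpn ran from 18.9 to 381 CPM. All genes come from the same 8 libraries, so the values describe likeness only. Of the 10, 5 stayed among the 10 most alike with TPM. By Spearman correlation 6 reached the value of the 10th gene, counted with ties, which are frequent over 8 tumors.

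Sorted cells held little of the neuronal RNA of bulk tumors. Summed over the 37 genes, 426 ± 43.5 CPM (SD, n = 4) were left in GL261 adherent sorted cells, 7.79% of the bulk mean, and 489 ± 83.6 CPM (SD, n = 3) in those of CT2A, 9.79%. The median member kept 1.57% of its bulk level in GL261 and 2.37% in CT2A, whereas the median over all genes was 91.3% and 104%. In GL261, 36 of 37 members were lower in sorted than in bulk libraries and 0 higher, against 20.1% of all genes called lower. In CT2A all 37 were lower, against 26.9% of all genes. Every sorted library lay below every bulk tumor for 32 members in GL261 (23.5% of all genes) and for 35 in CT2A (26.3% of all genes).

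By role, the GABA genes had the lowest median. All 4 GABA genes were lower, with a median log2 fold change of -7.59 in GL261 and -7.15 in CT2A. Gad1 went from the bulk values above to 0.216, 1.3, 1.74 and 0.188 CPM in GL261 libraries 81 to 84 (log2 fold change -7.16, SE 1.23, adjusted p = 0.00349 by edgeR's quasi-likelihood test). In CT2A it went from 59.8, 45.1, 147 and 148 CPM to 0.867, 1.5 and 1.3 CPM (-6.38, SE 0.63, adjusted p = 4.98e-04). No sorted library came near a bulk tumor. Gad2, the second GABA-making enzyme, kept 0.603% of its bulk level in GL261 and 1.57% in CT2A, and Slc32a1 and the GABA-A receptor subunit Gabrb2 kept 0.331 to 0.380% in both lines.

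The 7 glutamate genes had a median log2 fold change of -6.81 in GL261 and -6.40 in CT2A. The AMPA receptor subunit Gria2 showed the largest decrease of all members in GL261, from 23.9, 493, 209 and 155 CPM to 0.108, 0.501, 0.869 and 0.376 CPM (log2 fold change -8.78, SE 1.05, adjusted p = 0.00105 by edgeR). In CT2A it fell by 7.61 on the log2 scale (SE 0.77, adjusted p = 5.36e-04). Slc17a7 stood at 3.36, 4.61, 9.19 and 3.19 CPM in GL261 and at 4.83, 11 and 8.88 CPM in CT2A sorted cells. Every sorted library lay below every tumor.

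Interneuron genes were close to the limit of counting. Sst, the peptide somatostatin, was at 21.4, 10, 36.9 and 40.1 CPM in CT2A tumors and had 1 read in the 3 CT2A adherent libraries together, which is 0.142% of the bulk level with a 95% exact interval of 0.00311 to 0.687% for counting error. Calb1, a calcium-binding protein, had the most reads of this role in bulk tumors, though per length it lay below Sst (mean 22.3 against 107 TPM in GL261 and 23.8 against 99.8 TPM in CT2A). It stood at 3.26, 100, 24.2 and 27.6 CPM in GL261 tumors and at 0, 0.300, 0.372 and 0.282 CPM in sorted libraries 81 to 84. The other members of this role, Pvalb and Npy, kept 2.00 and 0.906% in GL261 and 2.53 and 2.19% in CT2A.

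By role median, presynaptic and cytoskeletal genes lay between these roles and the few that stayed. Single members, such as Nefm, fell as far as genes of those roles. Snap25 went to 1.52, 7.61, 8.57 and 1.88 CPM in GL261 sorted libraries (log2 fold change -6.19, SE 1.01, adjusted p = 0.00294 by edgeR). In CT2A it went to 6.69, 11.2 and 10.1 CPM (-5.50, SE 0.70, adjusted p = 9.28e-04). These values lay far below all tumors of the line, including the poorest. The decrease of Nefm, the medium neurofilament subunit, was among the 4 largest in CT2A (-8.21, SE 0.87), at 97.0, 43.3, 154 and 201 CPM in tumors and 0.248, 0 and 0.974 CPM in sorted cells. Fitted changes of genes with so few reads depend on the prior count and give no bound, which also holds for Sst (-9.10, SE 0.94) and Slc32a1 (-8.08, SE 0.89) in CT2A and for Grin2a (-8.37, SE 1.28), Slc32a1 (-8.10, SE 1.36) and Gabrb2 (-7.91, SE 1.28) in GL261.

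The members not singled out elsewhere followed the same course. Rbfox3, which encodes the nuclear antigen NeuN, Nefh, the heavy neurofilament subunit, the vesicle proteins Sv2a and Sv2b, the complexin Cplx1, and the receptor subunits Grin1 and Gria3 kept 0.646 to 2.46% of their bulk level in GL261 and 0.810 to 3.9% in CT2A. All 7 passed the threshold in both lines.

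**Figure D4:**
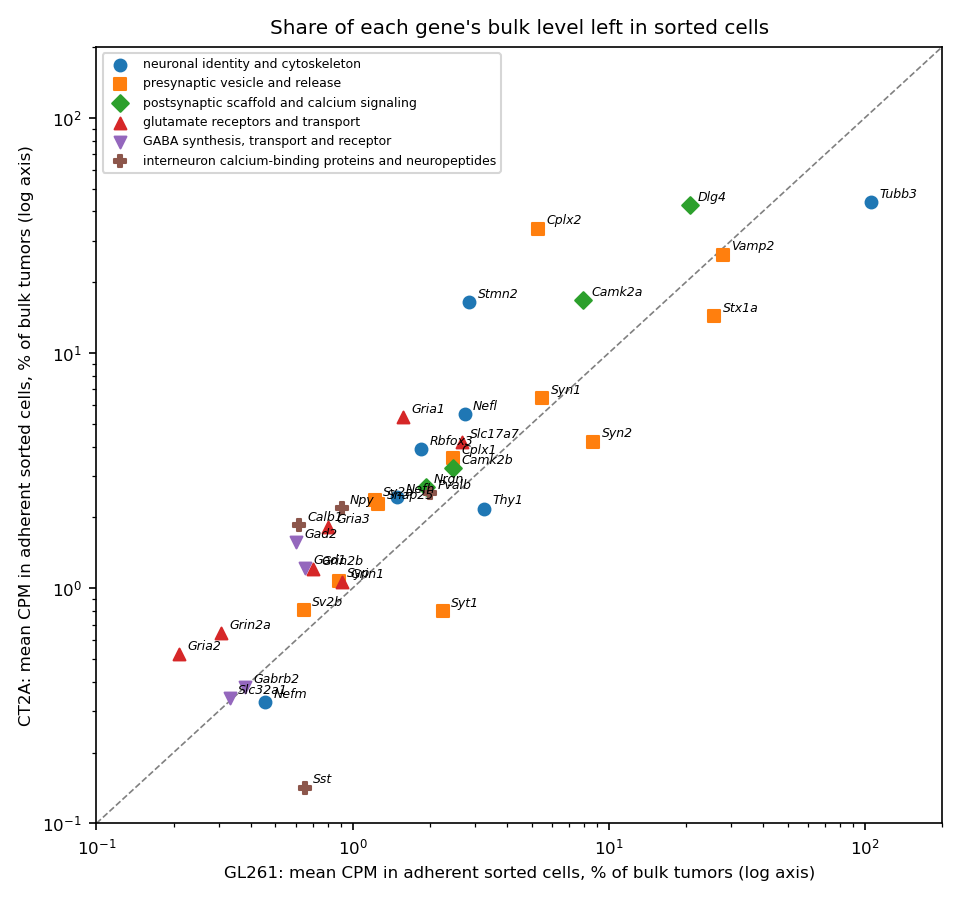
Mean CPM of each member in adherent sorted cells as a percentage of its mean in bulk tumors, GL261 on the horizontal and CT2A on the vertical log axis, with symbols for roles and a dashed line at equal shares. Tubb3, Dlg4 and Vamp2 lie above 20% in both lines, Cplx2 only in CT2A and Stx1a only in GL261, while GABA genes and most glutamate receptor genes lie near or below 2%.

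A few members stayed. The 4 with the highest share in GL261 adherent sorted cells were Tubb3 (106% of the bulk level), Vamp2 (27.9%), Stx1a (25.8%) and Dlg4 (20.7%). In CT2A they were Tubb3 (43.8%), Dlg4 (42.7%), Cplx2 (33.8%) and Vamp2 (26.2%). Tubb3, Vamp2, Dlg4, Cplx2 and Camk2a, a set named after their values were seen, made up 25.7 to 43.7% of the summed CPM in bulk tumors and 71.4 to 92.4% in sorted libraries. The summed values in sorted libraries therefore describe mostly these genes.

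Tubb3, the beta-tubulin used as a neuronal marker, read 133, 237, 141 and 124 CPM in GL261 tumors 405, 412, 414 and 417 and 196, 137, 122 and 214 CPM in sorted libraries 81 to 84. The groups overlapped (log2 fold change 0.20, SE 0.26, adjusted p = 0.583 by edgeR). In CT2A it went from 191, 151, 214 and 190 CPM to 78.2, 104 and 62.7 CPM, without overlap (-1.25, SE 0.19, adjusted p = 0.00164). The difference between the lines in this change was -1.29 (SE 0.35, adjusted p = 0.0270 by the interaction test), the only such call among 37 members, against 5.80% of all genes called in this direction. It was lost without GL261 tumor 414 or 417, CT2A tumor 47 or CT2A sorted library 69 or 71, each leaving 0 members. Without tumor 405, 2 members, Stmn2 and Cplx2, had a positive difference past the threshold.

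Vamp2, the SNARE of the vesicle, was at 79.0, 482, 248 and 190 CPM in GL261 tumors and at 103, 63.8, 61.7 and 51.4 CPM in sorted cells, so that library 81 lay above tumor 405 (log2 fold change -1.71, SE 0.48, adjusted p = 0.0236 by edgeR). In CT2A it went from 168, 101, 252 and 292 CPM to 49.7, 55.6 and 54.4 CPM. Dlg4, which encodes the scaffold PSD-95, was at 44.1, 327, 155 and 148 CPM in GL261 tumors and at 15.8, 45.3, 44.2 and 34.4 CPM in sorted cells. It was at 148, 74.6, 174 and 208 CPM in CT2A tumors and at 57.2, 64.7 and 71.8 CPM in sorted cells. Dlg4 thus stayed within 5-fold of its bulk mean in both lines, while its partners at the postsynapse did not: Camk2b kept 2.47 and 3.25% and Nrgn 1.93 and 2.7%.

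Camk2a stood between these. It kept 7.94% in GL261, at 7.58, 95.9, 74.4 and 31.6 CPM in libraries 81 to 84, and 16.8% in CT2A, at 61.5, 109 and 123 CPM. It was among the members whose sorted and bulk libraries overlapped, in both lines, because libraries 82 and 83 lay above tumor 405 and libraries 70 and 71 above tumor 40. The decrease passed the threshold in both lines (log2 fold change -3.53, SE 0.91, adjusted p = 0.0171 in GL261, and -2.63, SE 0.66, adjusted p = 0.0128 in CT2A, by edgeR).

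Stx1a, a SNARE of the presynaptic membrane, was one of 8 members whose leading transcript differed between bulk and sorted libraries, with Rbfox3, Syn2, Grin1, Gria1, Gria3, Gad1 and Pvalb. In bulk tumors the coding transcript Stx1a-201 led, with 50.8, 61.9 and 37.6 RPM (reads of the transcript scaled to library size) in GL261 tumors 412, 414 and 417 but 7.51 in tumor 405. In GL261 sorted libraries 81 to 84 it had 0, 6.97, 3.29 and 0 RPM. Stx1a-204, which the annotation marks for nonsense-mediated decay, had 23.7, 7.08, 13.1 and 15.1 RPM in tumors 405, 412, 414 and 417 and 8.97, 6.66, 13.0 and 14.0 in the sorted libraries, so that its groups overlapped. In the CT2A adherent libraries Stx1a-204 was listed at 0 in all 3. Gria3 also led with a transcript marked for nonsense-mediated decay in sorted libraries, where it had only 7 to 23 reads per group. Pvalb, with 1 to 10 reads per sorted group, and Gad1, with 14 to 32, had few as well. So had Grin1, with 12 to 50, and Rbfox3, with 16 to 66. The leading transcripts of these members in sorted cells are therefore uncertain. Salmon shared reads out among transcripts, and with reads of 37 bases against 150 the split may differ for that reason alone; this was not tested.

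Lists of other genes were followed through the same contrast. Of 34 further neuronal genes, 31 were lower in GL261 and 33 in CT2A sorted cells and 0 higher, with medians of -4.65 and -4.69. Map2, a dendritic microtubule protein, was an exception in GL261 (-0.49, SE 0.39, adjusted p = 0.350 by edgeR) and fell by 1.96 on the log2 scale in CT2A. Astrocyte genes were lower for 6 of 9 and 8 of 9, and oligodendrocyte genes for 7 of 10 and 10 of 10. Of 11 macrophage and microglia genes, 2 were lower in GL261 and 0 in CT2A, with medians of -0.51 and -0.20. Of 4 genes of the REST repressor complex, 3 were higher in sorted cells of each line, against 14.4% of all genes in GL261 and 23% in CT2A. Rest itself, singled out after its values were seen, rose by a log2 fold change of 1.33 (SE 0.29, adjusted p = 0.00818) in GL261 and 1.06 (SE 0.14, adjusted p = 9.47e-04) in CT2A by edgeR.

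Sorted libraries of a group also differed among themselves. GL261 library 81 was the lowest of 4 for 23 of 37 members, and its macrophage and microglia sum, 145 CPM, was below the 475 to 920 CPM of libraries 82 to 84, as was its oligodendrocyte sum (552 against 710 to 1039 CPM). CT2A neurosphere library 60 was the highest of 5 for 27 members. Snap25 was at 4.25 CPM there and at 0.229 to 0.467 CPM in the other 4 libraries, Camk2a at 30.8 against 1.53 to 5.92 CPM, and the oligodendrocyte sum at 322 against 31.1 to 56.1 CPM. The share of other cells in these libraries was not tested. With any 1 library left out, 34 to 36 members were lower in GL261 sorted than in bulk libraries and 35 to 37 in CT2A.

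Between sorted cells of the lines, fewer members could be tested, since 15 were too low in adherent cells and 19 in neurosphere cells. In adherent cells, 22 members passed the minimum; 2 were higher in CT2A (24% of all genes) and 3 lower (26.8% of all genes), shares below those of all genes. Stmn2, a microtubule regulator of growing axons, was at 7.31, 11.9 and 17.0 CPM in CT2A and at 0.649, 2.00, 3.85 and 1.97 CPM in GL261 (log2 fold change 2.45, SE 0.53, adjusted p = 0.00478 by edgeR). Cplx2, a complexin that binds the SNARE complex, was at 75.9, 91.3 and 113 CPM in CT2A and at 3.36, 24.9, 21.5 and 12.0 CPM in GL261 (2.54, SE 0.53, adjusted p = 0.00426). Neither gene overlapped between the lines, but both were picked because they were called, and the share of all genes without such overlap was not counted.

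Tubb3 (-1.08, SE 0.25, adjusted p = 0.00758 by edgeR), Stx1a (-1.24, SE 0.26, adjusted p = 0.00419) and Syt1 (-1.73, SE 0.59, adjusted p = 0.0376) were lower in CT2A adherent cells. Stx1a was at 4.83, 7.49 and 7.14 CPM in CT2A against 10.6, 15.7, 16.3 and 16.5 CPM in GL261. Syt1, the calcium sensor of release, was at 1.86, 2.19 and 3.79 CPM against 5.85, 11.3, 13.7 and 2.63 CPM, with overlap through library 84. Without GL261 library 81, 5 members were lower in CT2A.

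In neurosphere cells, 18 members were tested; 3 were higher in CT2A (30.0% of all genes) and 8 lower (29.6% of all genes). Stmn2 and Cplx2 were again higher. Stmn2 was at 26.8, 9.73, 16.7, 22.5 and 19.7 CPM in CT2A libraries 57 to 61 and at 1.82, 1.61 and 2.07 CPM in GL261 libraries 89 to 91 (log2 fold change 3.33, SE 0.37, adjusted p = 3.68e-05 by edgeR). Cplx2 was at 67.7, 84.0, 93.2, 82.6 and 86.0 CPM against 7.41, 14.8 and 11.8 CPM (2.82, SE 0.23, adjusted p = 4.18e-06). Tubb3, lower in CT2A adherent cells, was higher in CT2A neurosphere cells (0.68, SE 0.16, adjusted p = 0.00516), at 114, 98.8, 157, 128 and 130 CPM against 67.2, 75.3 and 86.1 CPM.

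The 8 lower members were Syt1, Thy1, Nefl, Syn1, Syn2, Syp, Camk2b and Nrgn, and the 4 largest changes were those of Syt1, Thy1, Nefl and Syn1. Nefl, Syt1, Syp, Syn2, Thy1 and Nrgn had 18 to 49 reads each over the 5 CT2A libraries together. They met the minimum count through GL261, where they were higher, so the share of 8 in 18 was partly set by that minimum. With no minimum, 8 of 37 members were lower and 3 higher, beside 4591 lower and 4319 higher of 22928 genes. Syt1 was at 12.5, 13.7 and 5.12 CPM in GL261 and at 0.229 to 1.20 CPM in the 5 CT2A libraries (log2 fold change -4.07, SE 0.50, adjusted p = 7.18e-05 by edgeR). Thy1, a surface glycoprotein of neurons that mouse T cells also carry, was at 6.44, 7.26 and 16.6 CPM against 0.490 to 1.11 CPM (-3.59, SE 0.41, adjusted p = 4.10e-05). Nefl, the light neurofilament subunit, was at 1.70, 2.19 and 2.31 CPM against 0 to 0.924 CPM (-2.64, SE 0.73, adjusted p = 0.0104); its annotated extent overlaps that of Nefm on the other strand, and how strand was counted is not given, so its level is uncertain. Syn1, which tethers vesicles, was at 11.9, 17.9 and 7.80 CPM against 0.841 to 2.87 CPM (-2.63, SE 0.39, adjusted p = 2.44e-04). No library of one line entered the range of the other for these 4 genes. They were picked as the largest called changes, and the share of all genes without such overlap was not counted. The count of 8 became 4 without GL261 library 90 or 91 and 5 without CT2A library 57 or 61. Macrophage and microglia genes moved in the same direction, at 3844 to 6101 CPM in GL261 and 464 to 2012 CPM in CT2A neurosphere libraries, as did oligodendrocyte genes, at 554 to 615 against 31.1 to 322 CPM. Their part in these differences was not tested.

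**Figure D5:**
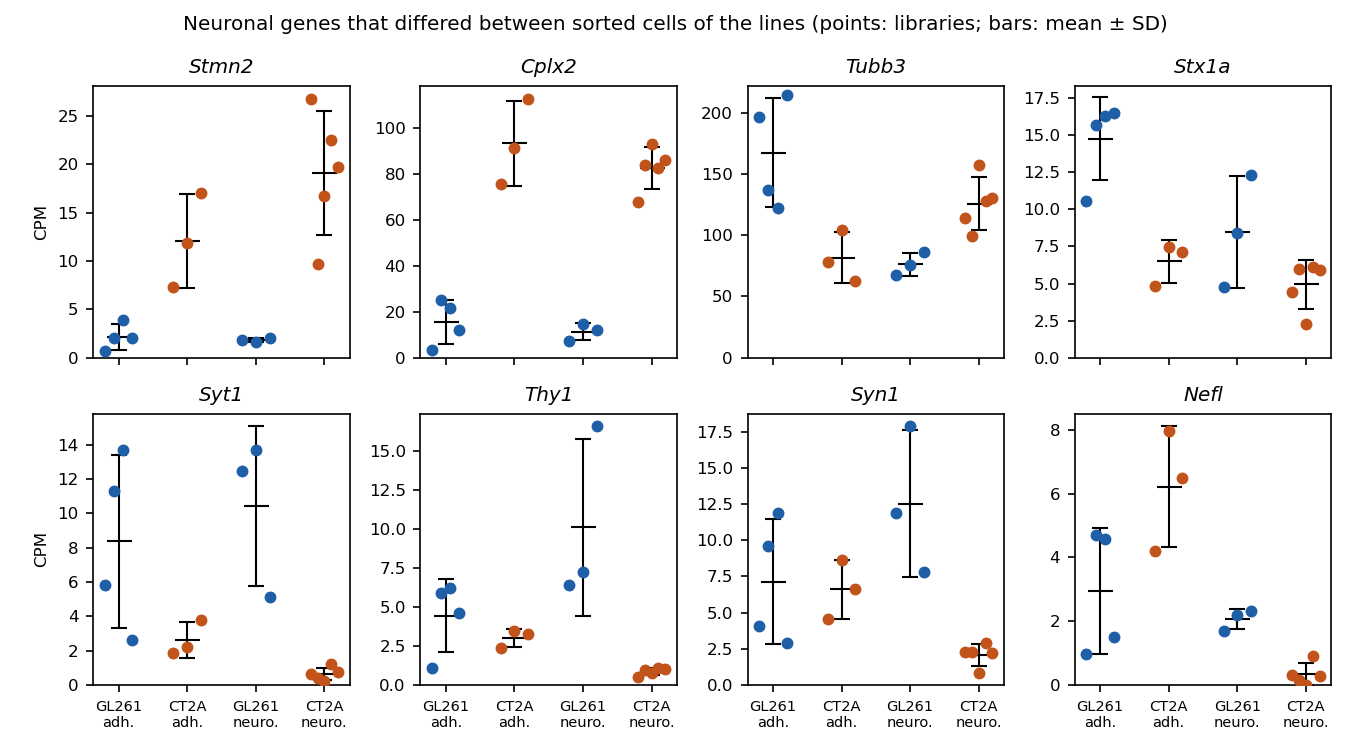
CPM of 8 members in the 4 groups of sorted libraries (adh., adherent; neuro., neurosphere; blue GL261, orange CT2A; points are libraries, bars the mean and SD), each called between the lines in at least 1 preparation. Stmn2 and Cplx2 are higher in CT2A in both preparations, and Tubb3 is lower in CT2A adherent but higher in CT2A neurosphere cells.

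Within a line, neurosphere cells held somewhat less of the members than adherent cells: 276 ± 28.8 CPM (SD, n = 3) in GL261, 5.04% of the bulk mean, and 359 ± 45.3 CPM (SD, n = 5) in CT2A, 7.19%. In CT2A the preparations overlapped, since neurosphere libraries 59 (397 CPM) and 60 (416 CPM) lay above adherent library 69 (392 CPM). Genes of other cells moved as well: macrophage and microglia sums were 3844 to 6101 CPM in GL261 neurosphere and 145 to 920 CPM in adherent cells, with 9 of 11 genes called higher. In CT2A, oligodendrocyte sums were 31.1 to 322 CPM in neurosphere and 249 to 369 CPM in adherent cells, and astrocyte sums 103 to 373 against 474 to 639 CPM. Their part in the members' values was not tested. In GL261, 1 of 20 members tested was lower in neurosphere cells, against 0.951% of all genes: Tubb3 (log2 fold change -1.10, SE 0.22, adjusted p = 0.0212 by edgeR), and this call was lost without library 84, 89, 90 or 91, each leaving 0. In CT2A, 1 of 21 was lower, against 0.114% of all genes: the AMPA receptor subunit Gria1 (-3.30, SE 0.49, adjusted p = 0.0449), at 4.96, 3.57 and 6.28 CPM in adherent and 0.163 to 1.02 CPM in neurosphere cells. Unadjusted, 15 of the 21 had a p under 0.05, against 13.1% of all genes; 14 of them had a negative change and Tubb3 a positive one (0.59, SE 0.19). DESeq2 called 10 lower, against 1.46% of all genes. Gria1 had 28 reads over the 5 neurosphere libraries together and met the minimum count through the adherent ones. The same held for other members tested, among them Nefl (18 reads against 163 in adherent libraries), Cplx1 (38 against 132) and Nrgn (49 against 176). These counts of members were therefore partly set by that minimum. With no minimum, 23 of 37 members had an unadjusted p under 0.05 by edgeR, beside 2362 of 22370 genes.

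This last comparison turned on single libraries. Without CT2A library 60, which was the highest for most members, 12 members were lower in neurosphere cells. Without library 59 there were 2, and without 57, 58, 61, 69, 70 or 71 there were 0. The difference between the lines in the change from adherent to neurosphere cells passed the threshold for 4 of 21 members. It was positive for Tubb3 (1.72, SE 0.31, adjusted p = 0.00885 by edgeR; 0.969% of all genes) and negative for Nefl (-3.70, SE 0.96, adjusted p = 0.0335), Thy1 (-3.01, SE 0.69, adjusted p = 0.0195) and Syn1 (-2.50, SE 0.67, adjusted p = 0.0380; 5.70% of all genes). The call of Tubb3 held with each library left out. The 3 negative calls became 9 without library 60, 0 without library 71 and 1 without library 57, 58, 61, 70, 84, 89, 90 or 91.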

How the data were processed

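The authors quantified reads against the mouse GRCm38 (mm10) transcriptome with Salmon and deposited estimated counts and TPM per transcript for each of 23 libraries. For 15 libraries they also deposited RSEM 1.3.3 tables of expected counts, TPM and FPKM after STAR 2.7.7a, used here only as an alternative. Salmon counts were summed over 116546 transcripts to 35576 genes and rounded. Transcripts without a gene (180) held at most 0.152% of reads. CPM used TMM factors over all libraries. Genes with a mean normalized count above 10 were tested with edgeR 4.0.16 (robust quasi-likelihood test, R 4.3.3), adjusted by the Benjamini-Hochberg method over all genes, with a threshold of 0.05 and SE taken as the absolute log2 fold change over the root of F. The code was tested on simulated data. Alternatives were DESeq2 1.42.0, other size factors and minimums, TPM, RSEM counts (bulk and adherent cells), libraries thinned to the smallest total, 1 fit over all groups, and leaving out each library. Values per library were given for the leader of each role in bulk tumors by CPM, the 4 most kept members of each line and called members among the 4 highest and 4 lowest changes between lines; fold changes for up to 4 called members in each direction; and, of other genes, the 10 most alike and up to 3 leaders per list. Other members were named after their values were seen. The members and lists were chosen with earlier results of these data known. Counting intervals cover counting error only. The marker used for the sort is not reported here.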

Additional observations from a re-analysis of the deposited data

Results flagged for a closer look

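Values of single members and of their sum were examined, within groups of 4 or more libraries, for 1 library far from the rest. Of 93 such sets, 7 held one. Chance gives about 1 in 20 for unrelated, normally distributed values. The sets share libraries and members move together, so this rate is only a rough guide. GL261 tumor 412 stood apart for Tubb3 (237 CPM, the other tumors 124 to 141), Gad2 (367 CPM, the others 9.93 to 51.1) and Slc32a1 (149 CPM, the others 4.19 to 25.8). Among GL261 adherent sorted cells, Syn2 was at 19.0 CPM in library 84 and 5.51 to 7.08 in the others, and Stx1a at 10.6 CPM in library 81 and 15.7 to 16.5 in the others. Among CT2A neurosphere cells, Vamp2 was at 96.0 CPM in library 59 and 35.2 to 49.0 in the others, and Camk2a at 30.8 CPM in library 60 and 1.53 to 5.92 in the others.

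The lines differed, by the interaction test of edgeR, in the change from bulk to adherent sorted cells for Tubb3 (-1.29, SE 0.35). They differed in the change from adherent to neurosphere cells for Nefl (-3.70, SE 0.96), Thy1 (-3.01, SE 0.69), Syn1 (-2.50, SE 0.67) and Tubb3 (1.72, SE 0.31).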

How the results depend on the processing

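Of 96 member values past the threshold, recomputed 1388 times in all, 1314 kept their call, 74 lost it, 0 reversed, and 15 of the results lost it in some setting. No paired analysis was possible because the groups compared share no replicate numbers. Of the 8 members lower in CT2A neurosphere cells, 5 were called in 1 fit over all 6 groups. The count lower in CT2A neurosphere against adherent cells, 1, became 10 by DESeq2, 2 with its size factors or edgeR's own filter, 3 with no minimum and 0 in 1 fit over all groups. The 3 negative interactions of line and culture became 5 by DESeq2 and 0 in 1 fit over all groups. With each library left out, members higher in CT2A bulk tumors ranged from 0 to 1, lower in CT2A adherent cells 2 to 5, lower in CT2A neurosphere cells 4 to 11 (without library 60), lower in neurosphere cells 0 to 1 in GL261 and 0 to 12 in CT2A, positive sort interactions 0 to 2, negative ones 0 to 1, and negative culture interactions 0 to 9. The libraries concerned are named in the report. The share kept was 9.26% (GL261 adherent), 5.58% (GL261 neurosphere) and 8.0% (CT2A adherent) with TPM, and 5.92% (CT2A neurosphere) without TMM. Leaving out single libraries it ranged over 6.07 to 11.5%, 3.93 to 7.46%, 7.99 to 12.1% and 5.87 to 8.87% in GL261 adherent, GL261 neurosphere, CT2A adherent and CT2A neurosphere cells. Of the 10 most alike genes, 6 reached the value of the 10th gene by Spearman correlation, ties included, and 5 did with TPM. The causes were not tested. Depth limits sorted cells, where members at a few reads cannot be ordered.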
